A study of Mus musculus with 10 samples.

Results

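Interferon-stimulated genes and genes of antigen presentation were compared between brains of wildtype mice (Abcc5+/+) and of Abcc5 knockout mice (Abcc5-/-). The members were 34 genes chosen by name for their role, and 32 of them were found by symbol among the 25050 genes of the deposited table. Ifi27 is listed there under the symbol Ifi27l1 and was matched by its Ensembl identifier, so its values are given separately and it is not among the members counted as tested, called or above 0. Psmb9 was not analysed here. RNA was taken from whole brains of 5 wildtype and 5 knockout animals, all on the FVB/NJ background, killed with CO2 and frozen at once. The age of the animals and the construction of the knockout allele are not given in the sources used here. The libraries hold polyadenylated RNA and are named here by group and replicate. ABCC5 is a membrane transporter of organic anions, and the series concerns its transport of glutamate-related compounds.

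Interferons are secreted proteins that infected or stressed cells release to warn their neighbours. Cytosolic sensors of viral RNA start the response, and the secreted type I interferon binds a receptor whose kinases activate transcription factors, STAT2 among them. STAT2 and IRF9 are subunits of the complex ISGF3, which binds a DNA element, the interferon-stimulated response element, in front of its target genes. Interferon gamma acts mainly through a different element, the gamma-activated site, and through IRF1. Among the targets are antiviral effectors and the machinery that cuts proteins into peptides and displays them on MHC molecules. In the healthy brain such genes run at a low tonic level, with microglia, endothelial cells and border macrophages among the main sources of the antigen presentation genes.

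To show the elements, stretches of promoter sequence were taken from RefSeq on GRCm38.p6 for members that illustrate them, written 5′ to 3′ in the direction of the gene. Each motif was searched on both strands in the 250 bases before the annotated start. GAAANNGAAA was used for the interferon-stimulated response element and TTCNNNGAA for the gamma-activated site, and matches are in capitals. Overlapping matches within 1 promoter were all marked. The Ifit1, Isg15, B2m and Stat2 stretches show the response element, and the Irf1 stretch shows the gamma-activated site.
Ifit1, chr19:34640765-34640833, + strand: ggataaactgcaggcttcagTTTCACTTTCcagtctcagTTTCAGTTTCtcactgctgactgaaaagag
Isg15, chr4:156200855-156200916, - strand: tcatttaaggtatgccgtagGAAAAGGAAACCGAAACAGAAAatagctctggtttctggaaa
B2m, chr2:122147528-122147577, + strand: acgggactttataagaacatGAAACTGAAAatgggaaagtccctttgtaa
Stat2, chr10:128270256-128270305, + strand: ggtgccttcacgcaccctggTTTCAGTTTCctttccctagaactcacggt
Irf1, chr11:53769904-53769952, + strand: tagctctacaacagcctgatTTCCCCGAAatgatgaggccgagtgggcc

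RefSeq gave promoters for 26 of the member genes of the deposited table. A response element match was present in 9 of these (34.6%), against 3.46% of all 27025 genes with a RefSeq promoter. Among 37 other interferon-stimulated genes, 16 had one (43.2%). A gamma-activated site match was present in 5 members (19.2%), against 8.13% of all genes. The members with a response element match were B2m, Bst2, Ifit1, Ifit3, Ifitm2, Isg15, Oas1a, Stat2 and Trim30a. A match is only a stretch of letters in this window. It is not evidence of binding in these brains.

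Library totals ran from 7731294 to 23588335 counts. The 3 deepest were knockout replicates 4 and 2 and wildtype replicate 1, and the other 7 libraries are called shallower here. Abcc5 itself was lower in every knockout library, at 210.7 to 226.2 CPM (TMM-scaled counts relative to the library's total in genes), against 299.2 to 325.9 CPM in wildtype. Knockout replicate 3 stood apart, with a summed level of cerebellar neuron markers of 76.5 CPM against 877.5 to 1045 CPM in the other 9 libraries. Values of members for which it was the extreme knockout library and that moved by over 1.5 times are therefore also given without it. These members were picked by that shift, so their shifts do not measure the effect of that library on the members at large. Markers of neurons, astrocytes and oligodendrocytes were abundant in all 10 libraries. Reads from whole brain cannot tell fewer cells of a type from less RNA per cell.

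Few members were called as different between the genotypes. A missed call does not show an absence of difference, and some 95% intervals were wide (-0.086 to 1.06 for Ifit1). Of 29 members with enough counts to be tested, edgeR called 1 at an adjusted p of 0.05, Irf9, which was lower in knockout, and none higher. Over all 14526 tested genes, 1.18% were called, 0.964% as lower and 0.213% as higher. At an unadjusted p under 0.05 there were 5 members, 4 higher (Ifih1, Irf7, Oasl2, Irf1) and 1 lower, where 14.8% of all tested genes reached that value, 6.74% as higher and 8.03% as lower. The fitted change was above 0 for 24 of 29 members and for 51.6% of all tested genes. Over all tested genes the median log2 fold change was 0.0042, with quartiles of -0.071 and 0.085. Over the members the median was 0.14, and it was 0.066 when knockout replicate 4 was left out. Single members rest on few libraries, and for 22 of 29 leaving out 1 of the 10 moved the log2 fold change by over 1.5 times or changed its sign. Changes near 0 meet that rule easily, and the same share over all tested genes is not given here. In the authors' deposited table, all 32 members had a readable adjusted p-value and none was under 0.05.

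**Figure D1:**
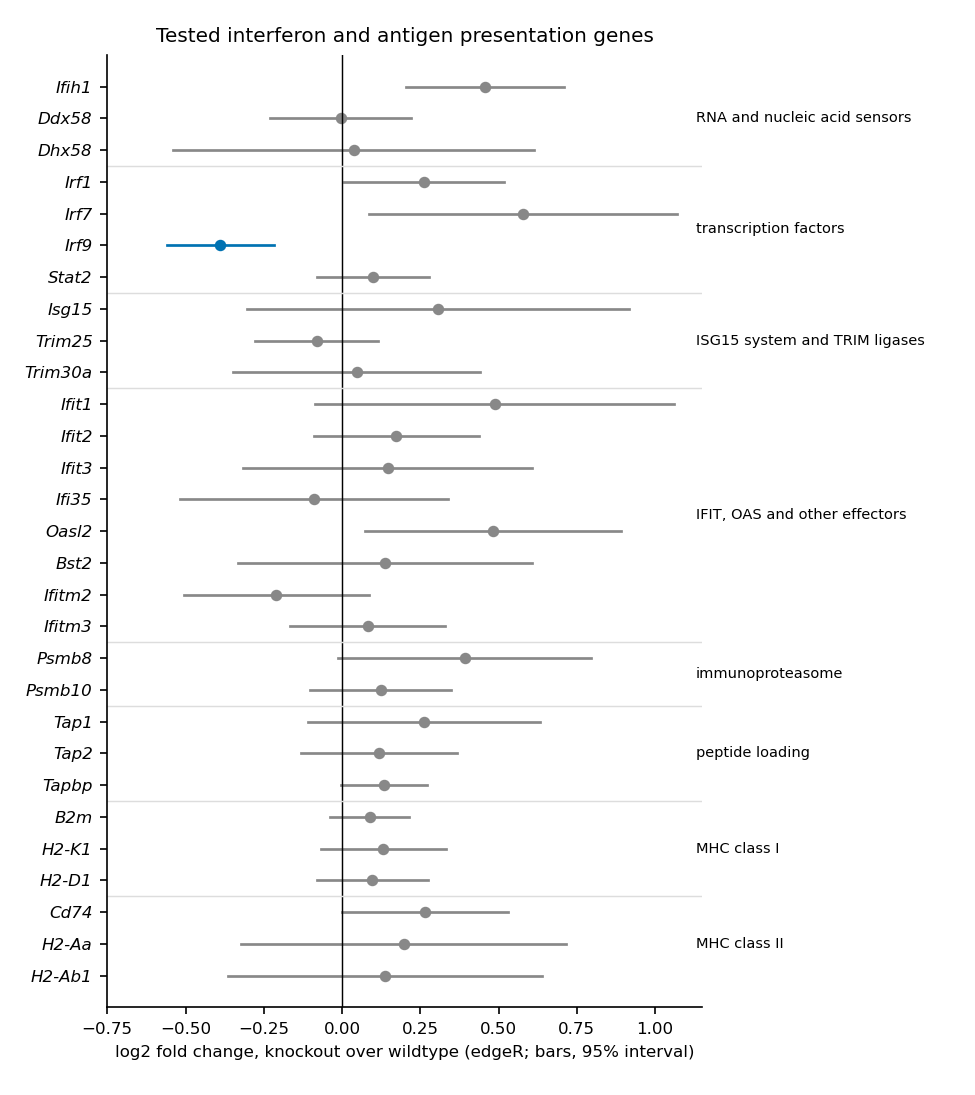
Log2 fold change, knockout over wildtype, of the 29 tested members in 8 role groups, with the 95% interval from the edgeR fit as bars. Irf9 (blue) is the only member past an adjusted p of 0.05, and 24 of 29 points lie above 0.

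Cytosolic sensors come first in the pathway. Ifih1 encodes MDA5, the sensor of long double-stranded RNA. Its level was 3.42, 3.21, 2.71, 2.70 and 3.62 CPM in wildtype replicates 1 to 5 and 4.40, 4.33, 4.49, 4.41 and 4.03 CPM in knockout replicates 1 to 5. The lowest knockout library lay above the highest wildtype library, which held for 2 of 29 tested members (Ifih1, and Irf9 in the other direction) and for 4.19% of all tested genes in either direction. The log2 fold change was 0.46 (SE 0.12, 95% interval 0.20 to 0.71, n = 5 each), and Ifih1 missed the threshold with an edgeR adjusted p of 0.0783. With 1 library left out, it ran from 0.40 to 0.51. The difference of mean log2 CPM was 0.48 within the 7 shallower libraries and 0.34 within the 3 deeper ones, where wildtype is 1 library.

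Ddx58 encodes RIG-I, the sensor of short RNA with a triphosphate end. It was 6.37 to 7.10 CPM in wildtype (median 6.65) and 5.65 to 7.57 CPM in knockout (median 6.37), with a log2 fold change of -0.0038 (95% interval -0.23 to 0.22). Dhx58 encodes LGP2, a helper of both sensors. It lay between 1.00 and 2.16 CPM in wildtype and between 1.04 and 2.75 CPM in knockout, with a wide 95% interval from -0.54 to 0.61. Ddx58 and Dhx58 therefore overlapped between the groups where Ifih1 did not. The difference between these genes was not tested. Zbp1, a sensor of Z-form nucleic acids that can start necroptosis, was a low-count gene with 0 to 7 counts per library. Its 5 wildtype libraries held 7 counts in all (0.121 CPM of the summed libraries) and its 5 knockout libraries 17 (0.243 CPM), and it was not tested.

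The transcription factors that read the signal did not move in a single direction. Irf9 (ENSMUSG00000002325, placed by the table at chr14:56222408-56228867, build not given) encodes the DNA-binding subunit of ISGF3. It was 18.2, 17.9, 19.1, 18.8 and 16.2 CPM in wildtype replicates 1 to 5. In knockout replicates 1 to 5 it was 13.8, 12.7, 12.1, 15.7 and 14.0 CPM. All 5 knockout libraries lay below all 5 wildtype libraries, although knockout replicate 4 (15.7 CPM) and wildtype replicate 5 (16.2 CPM) were close. Irf9 fell by 0.39 on the log2 scale (SE 0.080, 95% interval -0.56 to -0.22), with an edgeR adjusted p of 0.0303. With 1 library left out it ran from -0.46 to -0.35. The difference of mean log2 CPM was -0.43 within the shallower libraries and -0.36 within the deeper ones, the latter against a single wildtype library. Irf9 missed the threshold when wildtype replicate 2 (adjusted p 0.0642), 3 (0.078) or 4 (0.0926) was left out, and when knockout replicate 1 (0.0643) or 2 (0.0974) was. It also missed it in the 7 shallower libraries alone (adjusted p 0.116) and with the replicate number as a block (0.0602), and in the authors' deposited table Irf9 had an adjusted p of 0.0558. Irf9 overlaps Rnf31, a subunit of an E3 ubiquitin ligase complex, by 123 bases in the table's coordinates. Rnf31 changed by -0.081 on the log2 scale (edgeR adjusted p 0.623).

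Stat2, the partner of Irf9 in ISGF3, ranged more widely among the knockout libraries. It was 43.9, 43.7, 42.8, 45.6 and 41.9 CPM in wildtype and 50.5, 50.02, 34.2, 50.1 and 46.4 CPM in knockout replicates 1 to 5. In 4 knockout libraries Stat2 was above every wildtype library, and in knockout replicate 3 it was below all of them. The log2 fold change was 0.098 (SE 0.084, edgeR adjusted p 0.627) with that library and 0.18 (adjusted p 0.0678) without it. Irf7, the factor that amplifies type I interferon production, was 1.56, 1.202, 0.90, 1.83 and 1.17 CPM in wildtype and 2.08, 1.59, 1.85, 2.88 and 1.59 CPM in knockout. The highest value was in knockout replicate 4, and the groups overlapped. The log2 fold change of Irf7 was 0.58 (SE 0.23, edgeR adjusted p 0.264), and it was 0.32 without knockout replicate 4. Irf7 overlaps Phrf1 by 45 bases in the table's coordinates. Irf1, an early target of interferon gamma, ran from 3.62 to 5.61 CPM in wildtype (median 4.45) and from 4.62 to 5.83 CPM in knockout (median 5.38). Its log2 fold change was 0.26 (SE 0.12, edgeR adjusted p 0.328).

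**Figure D2:**
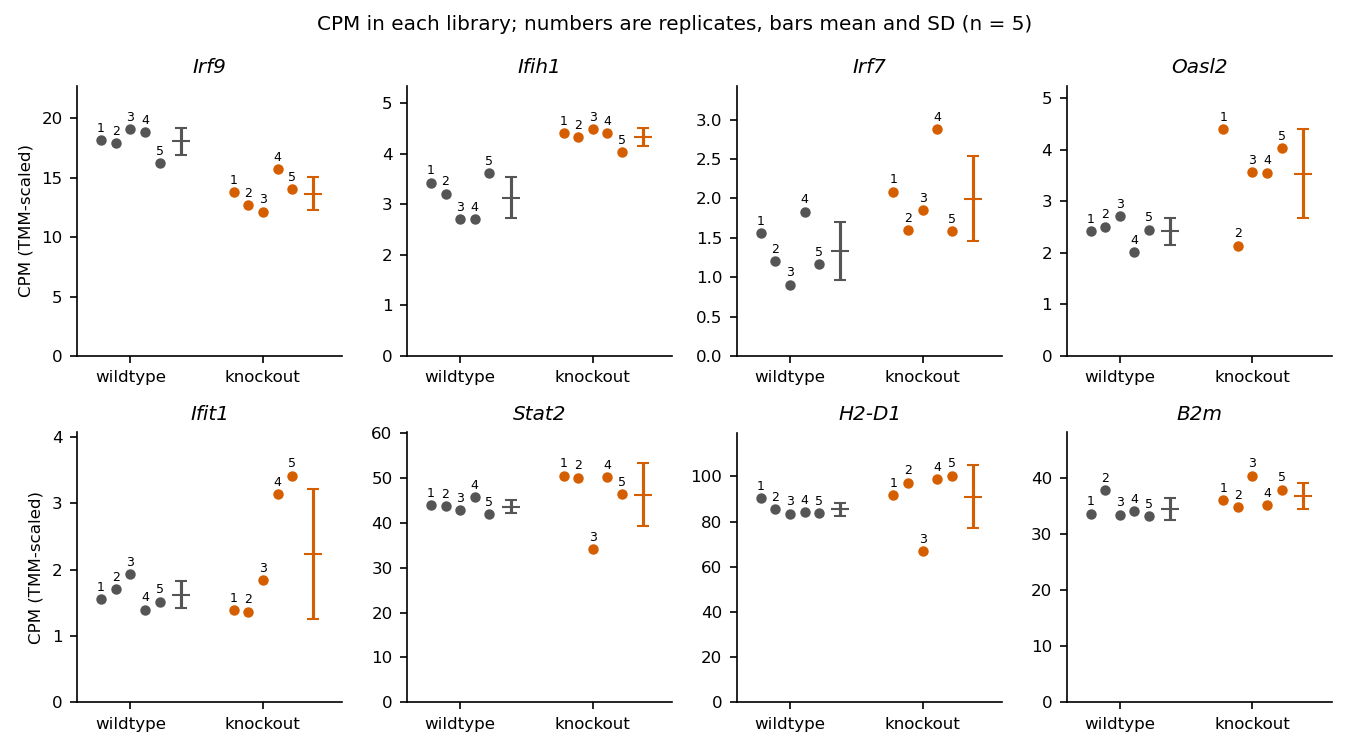
CPM of 8 members in each library, with wildtype in grey, knockout in orange, the replicate number at each point, and the mean and SD (n = 5) at the side. Irf9 and Ifih1 separate the groups, Ifit1 is high in knockout replicates 4 and 5 alone, and knockout replicate 3 is the lowest library for Stat2 and H2-D1.

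In the ISG15 system no member passed. Isg15 encodes a ubiquitin-like protein that is attached to other proteins. It was 1.11, 1.40, 2.58, 1.05 and 0.93 CPM in wildtype and 1.74, 1.28, 1.45, 2.33 and 0.98 CPM in knockout replicates 1 to 5. The highest library of all was wildtype replicate 3, and the 95% interval of the log2 fold change reached from -0.30 to 0.92. Its log2 fold change was 0.31, 0.010 without knockout replicate 4 and 0.55 without wildtype replicate 3. Usp18, which removes ISG15 and damps the receptor, was a low-count gene with 2 to 29 counts per library. It reached 0.233 to 1.102 CPM in wildtype and 0.35 to 1.59 CPM in knockout, and its highest values were in knockout replicates 5 and 4. Trim25, the ubiquitin ligase linked to RIG-I signalling, averaged 9.80 ± 0.885 CPM in the wildtype and 9.38 ± 0.834 CPM in the knockout brains (SD, n = 5 each). Trim30a, a ligase that restrains inflammatory signalling, was 2.21 ± 0.594 and 2.27 ± 0.455 CPM (log2 fold change 0.046, and -0.026 without knockout replicate 3).

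None of the 8 tested antiviral effectors passed the threshold. Ifit1, which binds foreign capped and triphosphate RNA, was 1.56, 1.70, 1.94, 1.40 and 1.52 CPM in wildtype. In knockout replicates 1 to 5 it was 1.39, 1.37, 1.85, 3.13 and 3.42 CPM. Replicates 4 and 5 were above every other library, while replicates 1 and 2 were level with the lowest wildtype library. These values rest on 74 and 28 counts in replicates 4 and 5, with exact 95% Poisson intervals of 2.46 to 3.94 and 2.27 to 4.94 CPM that cover counting error only. Those intervals did not reach the point values of knockout replicates 1 and 2, whose own intervals were 0.718 to 2.43 and 0.922 to 1.95 CPM. The intervals of replicates 1 and 5 overlapped. That of replicate 3 (1.01 to 3.1 CPM) overlapped those of replicates 4 and 5, which were picked as the highest libraries. The log2 fold change between the genotypes was 0.49 (SE 0.27, edgeR adjusted p 0.422), and it was 0.21 without knockout replicate 4.

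Ifit3, which forms a complex with the other IFIT proteins, had the same 2 libraries on top, at 2.41 and 2.93 CPM, against 1.39 to 2.09 CPM in the other 8. Oasl2, of the oligoadenylate synthetase family, was 2.42, 2.51, 2.71, 2.01 and 2.45 CPM in wildtype and 4.40, 2.14, 3.56, 3.56 and 4.03 CPM in knockout. Here 4 of 5 knockout libraries exceeded all wildtype libraries and knockout replicate 2 did not. Its log2 fold change was 0.48 (SE 0.19, edgeR adjusted p 0.260). With 1 library left out it ran from 0.40 without knockout replicate 1 (edgeR adjusted p 0.367) to 0.67 without knockout replicate 2 (0.0552). Bst2, the tetherin that holds budding virus at the membrane, was 1.40 to 2.52 CPM in wildtype and 1.32 to 2.69 CPM in knockout, highest in knockout replicates 5 and 4 and lowest in replicate 3. Its log2 fold change was 0.14, and 0.21 without knockout replicate 3.

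The remaining effectors overlapped between the groups. Ifit2 was 9.50 ± 1.61 and 10.98 ± 1.63 CPM in wildtype and knockout (SD, n = 5 each), with its highest level, 13.2 CPM, in knockout replicate 3. Its log2 fold change was 0.17, and 0.11 without that library. Ifi35 was 2.03 ± 0.329 and 2.00 ± 0.519 CPM. Ifitm2 and Ifitm3 encode small membrane proteins that block virus entry. Ifitm2 was 4.54 ± 0.981 and 3.90 ± 0.169 CPM (log2 fold change -0.21), and Ifitm3 was 5.64 ± 0.789 and 5.90 ± 0.661 CPM (log2 fold change 0.082, or 0.12 without knockout replicate 3). Ifitm2 and Ifitm3 are close copies, as are genes of the Ifit and Oas families, so reads could be split between copies and these values are uncertain. Oas1a was a low-count gene with 1 to 13 counts per library, 14 in the wildtype and 30 in the knockout group, and was not tested. Ifi27, matched by its identifier, was 19.3 ± 0.624 and 20.2 ± 1.59 CPM (log2 fold change 0.077, edgeR adjusted p 0.629).

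Cells that see interferon replace subunits of the proteasome to cut peptides suited to MHC class I. Psmb8 was 0.90 to 1.80 CPM in wildtype (median 1.21) and 1.34 to 1.91 CPM in knockout (median 1.64), and its log2 fold change was 0.39 (SE 0.19, edgeR adjusted p 0.355). Psmb10 averaged 19.5 ± 3.62 CPM in the wildtype and 21.6 ± 1.32 CPM in the knockout brains. Both overlapped between the groups. Their constitutive counterparts Psmb5, Psmb6 and Psmb7 changed by -0.015, 0.065 and 0.048 on the log2 scale, each at an edgeR adjusted p of 0.664 or more.

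Tap1 and Tap2 form the peptide pump of the endoplasmic reticulum, and Tapbp encodes tapasin, which loads the peptide. The log2 fold changes were 0.26, 0.12 and 0.14, none past the threshold. Without knockout replicate 4 that of Tap1 was 0.14, and without knockout replicate 5 that of Tap2 was 0.070. Tapbp was the steadiest, at 30.2, 26.9, 25.5, 28.3 and 26.1 CPM in wildtype and 29.4, 28.7, 30.6, 33.2 and 29.2 CPM in knockout (edgeR adjusted p 0.346). A single wildtype library, replicate 1, lay among the knockout values. Tapbp overlaps Zbtb22 by 3421 bases in the table's coordinates, and the log2 fold change of Zbtb22 was 0.28 (edgeR adjusted p 0.142). The library kit named in the labels does not mark strand.

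Of the MHC class I chain genes, H2-D1 was the most counted member. It was 90.4, 85.4, 83.5, 84.3 and 83.7 CPM in wildtype and 91.6, 97.3, 67.0, 98.8 and 100.4 CPM in knockout replicates 1 to 5. As with Stat2, 4 knockout libraries were above every wildtype library and knockout replicate 3 was below all. Its log2 fold change was 0.097 (edgeR adjusted p 0.627) with that library, and 0.18 (adjusted p 0.0403) without it. H2-D1 was the only member called as higher under any leave-out, here with its own lowest library removed. Without that library 93 of 14747 tested genes were called as higher, against 31 of 14526 with it. The deviations of Stat2 and H2-D1 from their group means had a Pearson r of 0.905 over the 10 libraries, which share knockout replicate 3 as the lowest point. The part of the low cerebellar signal of that library in these values was not tested.

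H2-K1 was 14.6, 13.1, 11.5, 12.3 and 12.02 CPM in wildtype and 13.4, 13.2, 13.3, 16.6 and 13.1 CPM in knockout, and its log2 fold change was 0.13 (edgeR adjusted p 0.541), or 0.039 without knockout replicate 4. B2m, the light chain shared by class I molecules, was 33.7, 37.9, 33.5, 34.1 and 33.3 CPM in wildtype and 36.1, 34.8, 40.5, 35.2 and 37.97 CPM in knockout. Wildtype replicate 2 was the one wildtype library within the knockout range, and the log2 fold change was 0.089 (95% interval -0.037 to 0.21). Unlike Stat2 and H2-D1, B2m was highest in knockout replicate 3, and its log2 fold change was 0.057 without that library.

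MHC class II genes, typical of professional antigen-presenting cells, were low in these brains. Cd74, the invariant chain, was 6.29, 5.81, 4.64, 4.97 and 4.55 CPM in wildtype and 5.79, 6.88, 5.14, 7.201 and 6.35 CPM in knockout (log2 fold change 0.26, edgeR adjusted p 0.339). H2-Aa and H2-Ab1 encode the chains of the class II molecule and had as few as 9 and 7 counts in a library. H2-Aa was 1.16 to 2.70 CPM in wildtype and 1.46 to 3.22 CPM in knockout, and H2-Ab1 was 0.90 to 2.06 and 1.099 to 2.14 CPM. The 95% intervals of their log2 fold changes, -0.32 to 0.72 and -0.37 to 0.64, left a wide range. H2-Aa and H2-Ab1 overlap by 88 bases in the table's coordinates, where their reads cannot be told apart.

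The class I and II genes of the H2 complex are highly polymorphic and have close paralogs, and FVB/NJ carries another H2 haplotype than C57BL/6J, the strain of the mouse reference assembly. How the reads of these genes were assigned is not given in the sources used here. Levels at H2-K1, H2-D1, H2-Aa and H2-Ab1 are therefore uncertain, and their comparison rests on the same background in both groups. The table places 8 tested members on chromosome 17 (Tapbp, H2-K1, Psmb8, Tap1, Tap2, H2-Ab1, H2-Aa, H2-D1). The fitted change was above 0 for all 8, with none past the threshold. It was above 0 for 24 of 29 tested members (82.8%) and 51.6% of all tested genes, so this was not particular to chromosome 17. The sign changed for H2-Aa without knockout replicate 4 (-0.074) and for H2-Ab1 without knockout replicate 2 (-0.061).

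The libraries differed from each other across the members. Knockout replicate 4 had the highest level of all 10 libraries for 9 of 29 tested members, and knockout replicate 5 for 7. Neither was the lowest for any member. Wildtype replicate 3 was the lowest for 8 members. Knockout replicate 4 exceeded the mean of the other 4 knockout libraries for 26 of 29 members, by a median of 0.22 on the log2 scale, while the same median over all tested genes was 0.0070. The other libraries had medians of -0.12 to 0.074. Knockout replicate 4 was also the most deeply sequenced library, and the part of depth in this was not tested. The 7 shallower libraries leave out knockout replicates 2 and 4 and wildtype replicate 1 together. In them the median log2 fold change of the members was 0.14, and 7 members changed sign. That median was 0.066 without knockout replicate 4 alone and 0.18 without wildtype replicate 1 alone, so the shallower set does not test depth.

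**Figure D3:**
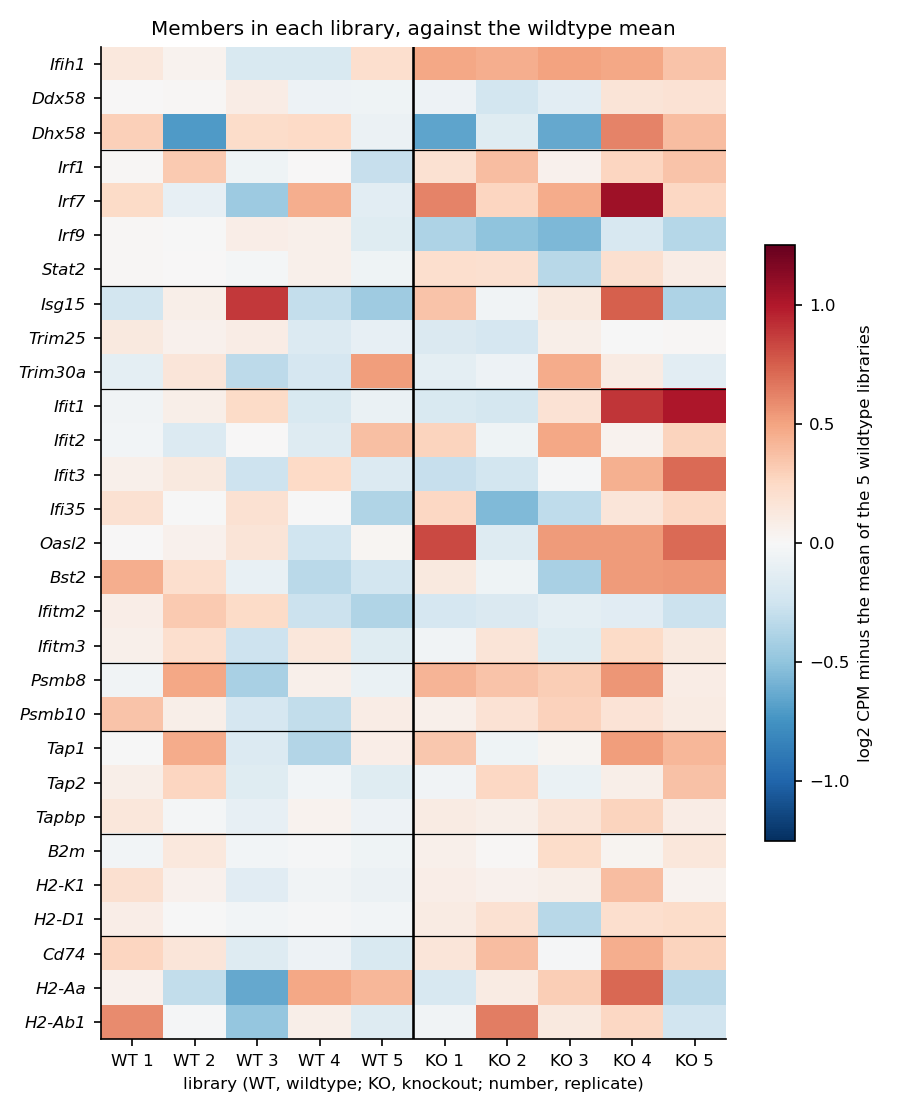
Log2 CPM of the 29 tested members in each library minus the mean of the 5 wildtype libraries, in role groups separated by lines. Knockout replicate 4 is above the wildtype mean for most members, Ifit1 reaches its highest levels in knockout replicates 4 and 5, and Irf9 is below the wildtype mean in all 5 knockout libraries.

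Correlations between members are a description only, because the same values for pairs of other tested genes are not given here. Over 406 pairs of tested members, the median Pearson r of their deviations from group means was 0.187 across the 10 libraries, which share depth and scaling. Within roles the median was 0.46 for class II, 0.41 for the transcription factors, 0.23 for the effectors, 0.13 for peptide loading and 0.095 for the ISG15 system. It was -0.11 for class I and -0.26 for the sensors, and the single immunoproteasome pair had 0.21. Ifit1 and Ddx58 (0.926) had the highest value of all pairs.

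Levels between genes were compared per kilobase of merged exon in GENCODE M21, for wildtype. Merging joins the exons of all annotated transcripts, which lowers the level of a gene with long rare transcripts. The merged exons of Irf7, at 3776 bases, are as long as the whole gene in the table's coordinates. The annotation used for counting is not given, so the order of genes on this scale is approximate. B2m led with 40.1 ± 2.23 CPM per kilobase, followed by H2-D1 with 33.1 ± 1.12, and the ranges of these 2 genes did not overlap. Psmb10 (11.5 ± 2.12) came next among the members found by symbol, and its range met that of Ifitm3. Ifitm3 (8.32 ± 1.16), Tapbp (7.55 ± 0.515), Stat2 (7.36 ± 0.235) and Ifitm2 (6.93 ± 1.498) overlapped each other. H2-K1 had 4.33 ± 0.413 and Irf9 3.35 ± 0.210 CPM per kilobase, and Irf9 overlapped Cd74 (3.13 ± 0.455). Inducible genes were spread over this scale, with Ifit2 (2.42 ± 0.410), Bst2 (2.04 ± 0.513) and Isg15 (1.87 ± 0.892) in its middle part. Ifit1 (0.611 ± 0.0778) was lower, and Oasl2 (0.379 ± 0.0402), Psmb8 (0.378 ± 0.0976) and Irf7 (0.353 ± 0.0964) were near the bottom. Ifih1, at 0.384 ± 0.0508 CPM per kilobase, was among them. Below these were the low-count genes Usp18, Oas1a and Zbp1.

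Other genes of these pathways, listed by role, were examined in the same fit. Of 120 table rows, 88 were tested, and none was called by edgeR, DESeq2 or limma-voom. Over all tested genes edgeR called 1.18%. At an unadjusted p under 0.05, 8 of the 88 were higher and 7 lower, where 6.74% and 8.03% of all tested genes were. The median log2 fold change was 0.016. Of the interferon ligands in the list, 5 were in the table. Only Il15, a cytokine listed with them, was tested, and the other 4, Ifng for interferon gamma among them, had at most 1 count in any library.

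Of the receptors, kinases and feedback genes, 2 of 13 tested had a change above 0, against 51.6% of all tested genes. Their median log2 fold change was only -0.022. Several lay so near 0 that their sign can depend on the scaling, such as Ifngr1 (-0.0062), Socs3 (-0.0065) and Pias1 (-0.0086). Jak1, the kinase shared by these receptors, was 197.9 CPM in both groups (SD 3.93 and 5.27). Ptpn2, a phosphatase that damps cytokine receptor signalling, was 21.7 ± 1.58 and 18.3 ± 1.04 CPM without overlap (log2 fold change -0.23, edgeR adjusted p 0.119). Among the adaptors, the log2 fold change was 0.28 for Tmem173, which encodes STING (edgeR adjusted p 0.322), and -0.25 for Irf2, an antagonist of IRF1 (edgeR adjusted p 0.153).

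Among other interferon-stimulated genes, 23 of 34 tested had a change above 0, against 51.6% of all tested genes, with a median of 0.068. Xaf1, a pro-apoptotic interferon target, went from 3.81 ± 0.727 to 5.54 ± 0.506 CPM without overlap (log2 fold change 0.50, edgeR adjusted p 0.0827). Rtp4 was 1.52 ± 0.305 and 2.27 ± 0.289 CPM (log2 fold change 0.56, edgeR adjusted p 0.144). Adar, an RNA-editing enzyme with an interferon-driven isoform, had a log2 fold change of 0.017. Of the other antigen presentation genes, the endoplasmic reticulum chaperones Pdia3 (-0.18 on the log2 scale, edgeR adjusted p 0.115), Calr (-0.19, 0.164) and Canx (-0.056, 0.552) were the highest or the nearest to the threshold.

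Markers of cells that carry these genes were measured beside them. The summed level of 15 microglial markers was 279.5 to 311.3 CPM in wildtype and 331.8 to 397.2 CPM in knockout, without overlap, and was highest in knockout replicate 3. All 15 were tested and had a change above 0, against 51.6% of all tested genes. Of the 15, 3 passed as higher, against 0.213% of all tested genes. These were C1qc, C1qb and P2ry13, with log2 fold changes of 0.52, 0.34 and 0.49 (edgeR adjusted p 0.00437, 0.0378 and 0.0439). Without knockout replicate 3 the knockout sums were 331.8 to 340.9 CPM and 4 markers passed, these 3 among them. With another library left out, 1 to 3 passed, and only 1 did without wildtype replicate 2, 3 or 5 or knockout replicate 1, 2 or 5. Knockout replicate 4, the highest library for the most members, had a microglial sum of 334.3 CPM, within the range of the other knockout libraries. Endothelial markers overlapped, at 274.6 to 301.7 CPM in wildtype and 276.8 to 318.5 CPM in knockout, and no marker of 9 passed. The part of the microglial difference in the members' values was not tested.

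Lymphocyte markers summed to 7.12 to 8.81 CPM in wildtype and 6.35 to 11.35 CPM in knockout, most of it from Cd4, and 9 of 12 stayed under 10 counts in every library. Border macrophage and monocyte markers summed to 15.4 to 20.7 and 14.0 to 17.3 CPM. Dendritic cell markers summed to 49.2 to 52.9 CPM in wildtype and 25.7 to 52.3 CPM in knockout, almost all of it from Flt3 and Zbtb46. Knockout replicate 3, the library with the low cerebellar signal, had the 25.7 CPM, and the other knockout libraries had 49.1 to 52.3 CPM. The part of that signal in this sum was not tested. Red blood cell markers summed to 53.5 to 87.5 and 69.8 to 101.5 CPM. None of these lists held a called gene, but few of their genes had enough counts to be tested. These were 1 of 12 lymphocyte, 4 of 9 border macrophage and monocyte and 2 of 6 dendritic cell markers. All 5 red blood cell markers were tested.

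**Figure D4:**
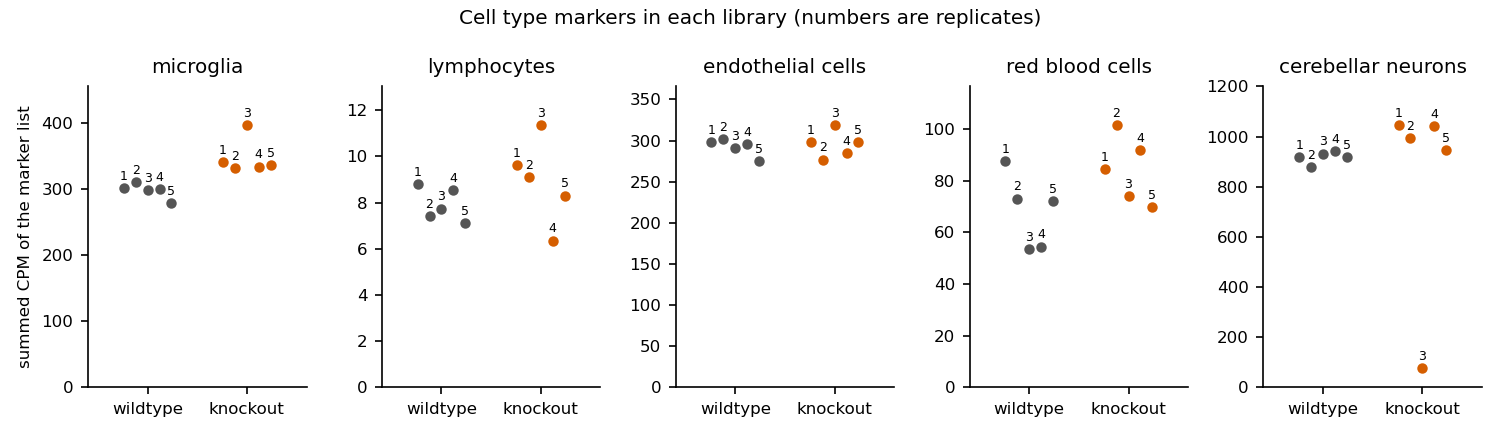
Summed CPM of 5 marker lists in each library, wildtype in grey and knockout in orange, with replicate numbers. Microglial sums do not overlap between the groups, and knockout replicate 3 has 76.5 CPM of cerebellar neuron markers where the other 9 libraries have at least 877.5 CPM.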

How the data were processed

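The authors deposited 1 table of raw counts, with Ensembl genes as lines and libraries as columns. TopHat2 2.0.6, HTSeq, edgeR and limma are named without roles, per the submitters' processing notes. The genome build and the counting annotation are not given in the sources used here. The authors' log2 fold changes and adjusted p-values, another kind of value deposited in the same table, were read only where the cell held an intact number. A further 10 columns of per-library values, with displaced decimal points, were not used. Each of the 10 libraries (5 per group) was assigned to its group by its label.

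The analysis used edgeR 4.0.16 under R 4.3.3. The filterByExpr filter (at least 10 counts, 15 in total) left the genes to be tested, libraries were scaled by TMM, and the test was the quasi-likelihood test with genotype as the only term, and p-values were adjusted by Benjamini-Hochberg over the 14526 genes tested. CPM are TMM-scaled, log2 CPM used a prior count of 2, and SE and intervals of log2 fold changes come from the F statistic. The SD is between brains, and replicate libraries of a group differed by 1.29 to 12.8 times counting noise (chi-square per degree of freedom). The fit was tested on simulated data, which supports no value given here. The named genes were all members, Abcc5, and from the pathway lists called genes, the 2 smallest p-values and the 2 highest levels of each list. From the marker lists they were called genes and up to 3 of the highest level. Rnf31, Zbtb22 and Phrf1 were named outside this rule because they overlap members, after their values were seen. Gene positions are those of the table. The members and lists were chosen with earlier results of these data known. Alternatives were other scalings, filters and tools (DESeq2 1.42.0, limma-voom of limma 3.58.1), the replicate number as a block, each library left out, the 7 shallower libraries and an adjusted p threshold of 0.1. The microglial markers with libraries left out were added after seeing the data.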

Additional observations from a re-analysis of the deposited data

Results flagged for a closer look

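Among 66 combinations of a gene and a group (the 32 members and Ifi27), 7 had 1 library far from the other 4, with a gap of over 0.71 of the range. Chance alone gives such a gap in about 1 of 20 groups. Knockout replicate 3 was far below the other knockout libraries for Stat2 (34.2 CPM against 46.4 to 50.5) and H2-D1 (67.0 CPM against 91.6 to 100.4). Knockout replicate 4 was far above them for H2-K1 (16.6 CPM against 13.1 to 13.4). In wildtype the far library was replicate 1 for H2-D1 (90.4 CPM against 83.5 to 85.4), replicate 2 for B2m (37.9 CPM against 33.3 to 34.1), replicate 3 for Isg15 (2.58 CPM against 0.933 to 1.40) and replicate 5 for Ifit2 (12.3 CPM against 8.32 to 9.42).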

How the results depend on the processing

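Over all genes, edgeR called 171, and 76 to 341 with 1 library left out (fewest without wildtype replicate 4, most without knockout replicate 3). The count was 90 with the replicate block, 261 by DESeq2, 31 in the 7 shallower libraries and 373 at an adjusted p under 0.1. Members called were 1, and 0 to 2 with 1 library left out (0 without wildtype replicate 2, 3 or 4 or knockout replicate 1 or 2; 2 without knockout replicate 3), 0 with the replicate block (Irf9 at an adjusted p of 0.0602), 0 in the 7 shallower libraries and 2 at an adjusted p under 0.1, where the pathway lists had 1. The pathway lists had no call under the other settings. The median log2 fold change of the members was 0.066 to 0.18 with 1 library left out. With 1 library left out, 8 members changed sign, none of them called: Ifi35 (-0.19 to 0.089), Dhx58 (-0.29 to 0.16), Trim30a (-0.026 to 0.17), H2-Aa (-0.074 to 0.33), Ddx58 (-0.077 to 0.071), Bst2 (-0.032 to 0.35), H2-Ab1 (-0.061 to 0.42) and Ifit3 (-0.0056 to 0.29). In the 7 shallower libraries the sign changed for Trim25 (0.0040), Ifi35 (0.14), Dhx58 (-0.20), Ifitm3 (-0.036), Isg15 (-0.044), H2-Aa (-0.17) and Ddx58 (0.010). It also changed for Dhx58 by limma-voom (-0.016) and for Ddx58 with upper-quartile scaling (0.014), and the cause was not tested. Same-numbered libraries shared only a number (r of deviations -0.138 to 0.0893 over 5 pairs). Genes under about 2 CPM rest on few counts, and 6 tested members had a library under 10 counts. Several low members, Ifih1 and Oasl2 among them, got no adjusted p from DESeq2.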

Other observations

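The spread between knockout libraries was not larger than that between wildtype libraries for most members. The SD of log2 CPM was larger in knockout for 13 of 29 tested members, and for 59.9% of all tested genes. Without knockout replicate 3 these were 12 members and 48.2% of all tested genes.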
